A study of Mus musculus with 24 samples.

Results

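Semaphorins are membrane-bound or secreted proteins that were first known for guiding growing axons. Most of them signal through plexins, transmembrane receptors with an intracellular domain that acts on small GTPases, and the secreted ones also need a neuropilin as co-receptor. On lymphocytes the membrane semaphorins act both as surface ligands for neighbouring cells and as shed proteins. The 6 genes described here are the semaphorins Sema7a, Sema4a, Sema4b and Sema4d, the plexin Plxnb2 and the neuropilin Nrp1. They were chosen by name, out of 22009 named genes in the table, because they code for semaphorins or semaphorin receptors, and because Sema7a was one of the genes that rose most in the first hours after activation. The change from rest is therefore given for these genes as a description without a test.

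RNA sequencing was carried out on CD4+ T cells purified from wild-type C57BL/6 mouse spleen, with spleens pooled over several mice. Every culture was activated through the antigen receptor and a co-stimulatory receptor, by antibodies to CD3 and CD28. Th0 cultures received nothing else. Th1 cultures also received IL-12 and anti-IL-4, and Th2 cultures IL-4, anti-IL-12 and anti-IFN-γ. Cells were taken at 4, 8, 12, 16, 20 and 24 h, 1 library for each condition and time point, which gave 18 culture libraries beside 2 libraries of resting cells. For 4 further libraries, actinomycin, which blocks transcription, was added after 16 h of stimulation and left on for 0, 1, 2 or 4 h. The labels used here do not give the skewing condition of these 4 libraries. Each combination was sequenced once, and the study's methods describe taking cells out of the cultures as time went on, from 1 pool of cells. The 6 libraries of a condition are then serial samples and not separate cultures from separate mice. They stand in for replicates in the comparisons between conditions, whose p-values measure how steady a difference was over these times and not how it would vary between mice or repeated cultures. In comparisons between times, or of a time with rest, the Th0, Th1 and Th2 libraries of a time point stand in for its replicates. Those p-values measure how steady a change was over differently treated cultures, again not between mice or repeated cultures. Each culture library is called a culture below.

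Values are RPKM, reads per kilobase of transcript scaled to the mapped reads of the library, so that levels can be set beside each other between genes. The libraries held 17512385 to 33017133 mapped reads, as recovered from the step size of the RPKM values. The resting libraries carry a different tag from the cultures in the labels, so that tag and activation cannot be told apart. Of 6 CD4 T-cell markers all reached 1 RPKM in every group, but the resting libraries also held RNA of other cells. The 12 macrophage markers summed to 590 to 609 RPKM at rest, 47.1 to 79.6 RPKM at 4 h and 8.17 to 13.1 RPKM at 24 h. The 7 red cell genes summed to 38837 to 42382 RPKM at rest, 29387 to 47109 RPKM at 4 h and 142 to 212 RPKM at 24 h. Ifng, the signature cytokine of Th1 cells, averaged 397.7 RPKM in Th1 cultures, 52.5 RPKM in Th0 cultures and 68.1 RPKM in Th2 cultures. Gata3, the transcription factor that directs Th2 differentiation, averaged 27.5 RPKM in Th2, 17.7 RPKM in Th0 and 8.58 RPKM in Th1 cultures. Il4 did not follow the labels in this way, being at 22.3 RPKM in Th1, 18.1 in Th2 and 12.1 in Th0 cultures.

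Sema7a and Sema4b were the members that differed most with the culture conditions, and the bases before their annotated transcription starts are shown for that reason. All coordinates are on GRCm38. Sema7a (ENSMUSG00000038264.8) lies on chromosome 9 at 57940112 to 57962865 on the plus strand and has 1 RefSeq start. Sema4b (ENSMUSG00000030539.13) lies on chromosome 7 at 80186841 to 80226527 on the plus strand and has 2 RefSeq starts. Capitals mark GGAAA on either strand, the core that NFAT proteins bind, and the windows are chr9:57939862-57940111, chr7:80186620-80186869 and chr7:80198338-80198587, 250 bases each, from RefSeq on GRCm38.p6.
Sema7a: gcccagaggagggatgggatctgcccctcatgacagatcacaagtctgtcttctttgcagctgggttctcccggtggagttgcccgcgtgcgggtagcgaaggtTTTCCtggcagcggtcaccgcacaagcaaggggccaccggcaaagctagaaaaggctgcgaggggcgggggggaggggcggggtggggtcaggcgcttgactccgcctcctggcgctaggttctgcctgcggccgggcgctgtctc
Sema4b, first start: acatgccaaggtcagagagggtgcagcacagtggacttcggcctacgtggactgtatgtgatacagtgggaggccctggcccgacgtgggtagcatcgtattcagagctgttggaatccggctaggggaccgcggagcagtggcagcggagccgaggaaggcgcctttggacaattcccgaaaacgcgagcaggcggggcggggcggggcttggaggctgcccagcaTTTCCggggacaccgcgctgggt
Sema4b, second start: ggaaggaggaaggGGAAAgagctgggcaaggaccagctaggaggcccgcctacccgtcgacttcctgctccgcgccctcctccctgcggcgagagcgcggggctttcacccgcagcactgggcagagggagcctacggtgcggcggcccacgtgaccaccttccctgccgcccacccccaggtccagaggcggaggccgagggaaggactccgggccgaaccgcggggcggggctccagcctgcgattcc
The letters GGAAA occurred in 55.6% of 32851 mouse promoter windows of this length. Each of the 3 windows printed held 1 match. Across all 13 starts of the 6 genes, no window held TTCNNNGAA, the spacing bound by most STAT dimers and present in 7.02% of promoters, or TTCNNNNGAA, the spacing preferred by STAT6 and present in 5.85%. TGANTCA, the AP-1 site, was in 1 start of Sema4d and in 6.75% of all promoters. Both strands were searched, no motif contains another, though matches may overlap, and a missing match says only that these letters are not in the 250 bases searched.

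The other 4 genes are on chromosome 3 at 88435959 to 88461182 (Sema4a, ENSMUSG00000028064.17), chromosome 13 at 51685529 to 51793747 (Sema4d, ENSMUSG00000021451.16) and chromosome 15 at 89155549 to 89180788 (Plxnb2, ENSMUSG00000036606.17), all on the minus strand, and on chromosome 8 at 128358604 to 128503363 on the plus strand (Nrp1, ENSMUSG00000025810.9).

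In resting cells Sema4d and Sema4a were the abundant members. Sema4d, a semaphorin of T cells that binds CD72 on B cells and B-type plexins, was at 60.9 and 65.1 RPKM in the 2 resting libraries. Sema4a, which is best known from antigen-presenting cells and T-cell priming, was at 57.0 and 61.8 RPKM, so the ranges of these 2 genes overlapped. Sema4b followed with 18.04 and 20.60 RPKM. The receptors were lower, with Nrp1 at 9.06 and 8.47 RPKM and Plxnb2 at 8.61 and 8.46 RPKM, and these also overlapped. Sema7a, a semaphorin held in the membrane by a lipid anchor that binds plexin C1 and integrins, was lowest at 1.03 and 1.21 RPKM. After activation the order was different. Over the 18 cultures the mean was 46.5 ± 25.9 RPKM for Sema7a (SD, n = 18), 45.8 ± 7.59 for Sema4d, 16.1 ± 11.1 for Sema4b, 8.03 ± 3.75 for Sema4a, 4.33 ± 1.18 for Nrp1 and 1.22 ± 0.359 for Plxnb2. The ranges of Sema7a, at 12.6 to 114.1 RPKM, and Sema4d, at 32.1 to 63.1 RPKM, overlapped, and so did those of each next pair down to Sema4a and Nrp1, but every Plxnb2 value was below every Nrp1 value.

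**Figure D1:**
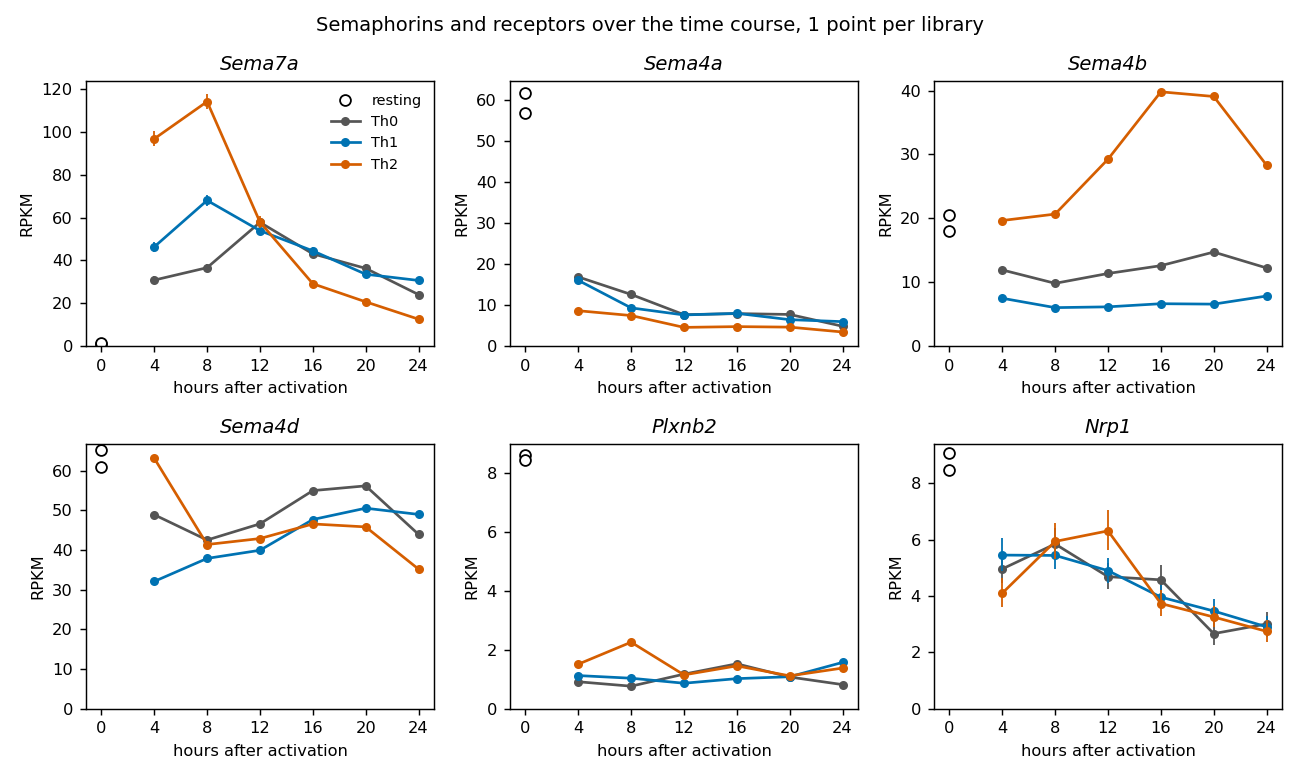
RPKM (vertical axis, starting at 0) of the 6 genes against hours after activation (horizontal axis), 1 point per library, with open circles for the 2 resting libraries and lines for Th0, Th1 and Th2 cultures. Bars for Sema7a and Nrp1 are 95% counting intervals. Sema7a peaked at 114.1 RPKM in Th2 cells at 8 h, Sema4b rose above 39 RPKM in Th2 cells alone, and Sema4a, Plxnb2 and Nrp1 lay below both resting libraries in all 18 cultures.

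Sema7a was above both resting libraries in all 18 cultures and rose within the first 4 h. In Th2 cells it was at 96.8 RPKM at 4 h, 114.1 at 8 h, 57.9 at 12 h, 29.1 at 16 h, 20.7 at 20 h and 12.6 RPKM at 24 h. In Th1 cells it was at 46.3, 68.0, 53.9, 44.5, 33.5 and 30.6 RPKM at the same times, and in Th0 cells at 30.8, 36.6, 57.8, 43.1, 36.3 and 24.0 RPKM. The peak thus fell at 8 h in Th2 and Th1 cells and at 12 h in Th0 cells, and the 3 conditions lay closest together at 12 h. The mean over the 3 conditions at 4 h was 58.0 ± 34.5 RPKM (SD, n = 3), 51.7 times the resting mean of 1.12 RPKM. The log2 difference from rest, on the scale of log2(RPKM + 0.5), was 5.01 with a standard error of 0.46 at 4 h, which put Sema7a first by rise among 10897 genes, and 3.73 at 24 h. This difference is what chose the gene. Sema7a was counted from 67 and 94 reads in the resting libraries, and from 1059 to 7326 reads in the cultures.

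The difference between Th2 cells and the other conditions changed over the hours for Sema7a. It was 3.14 times as high in Th2 as in Th0 cells at 4 h (95% interval 2.94 to 3.36) and 3.12 times as high at 8 h (2.94 to 3.31). The Th2 library at 4 h also had the highest marker sums of any culture for macrophages (79.6 RPKM), B cells (59.5 RPKM), red cells (47109 RPKM) and regulatory T cells (468.9 RPKM), whose part in its levels was not tested. At 12 h the Th2 to Th0 ratio of Sema7a was 1.00 (0.943 to 1.06), and by 24 h it was 0.522 (0.470 to 0.580). Against Th1 cells the ratio went from 2.09 (1.97 to 2.22) at 4 h, over 1.07 (1.01 to 1.14) at 12 h, to 0.410 (0.370 to 0.453) at 24 h. Th2 cells were therefore the highest of the 3 conditions at 4 and 8 h and the lowest from 16 h on. These intervals are conditional binomial (Clopper-Pearson) ones over recovered read pairs, cover counting error only, and say nothing of how a second culture would vary. In a limma model over the 18 cultures, the Th2 to Th1 difference of Sema7a fell by 2.36 on the log2 scale from 4 to 24 h (standard error 0.36, limma adjusted p = 0.00574). Without the 4 h libraries it was -2.39 (adjusted p = 0.0268) and without the 24 h libraries -2.41, at an adjusted p = 0.0532. Averaged over all times, the early and late differences offset each other, and Sema7a differed by 0.17 ± 0.29 (SE) between Th2 and Th0 (limma adjusted p = 0.699) and by -0.11 ± 0.29 between Th2 and Th1 (adjusted p = 0.856). Over 12 to 24 h alone, Th2 was lower than Th0 by a log2 difference of -0.57 (adjusted p = 0.0238), so the direction of the averaged difference depends on which hours enter it.

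Sema4d changed between Th2 and Th1 cells in the same direction over time as Sema7a did. In Th2 cells it was at 63.1 RPKM at 4 h, then at 41.4, 42.9, 46.6, 45.8 and 35.2 RPKM from 8 to 24 h. In Th1 cells it was at 32.1, 37.9, 39.9, 47.7, 50.5 and 49.0 RPKM, and in Th0 cells at 48.9, 42.5, 46.6, 54.97, 56.2 and 43.9 RPKM. The Th2 library at 4 h was the highest culture of all and the Th1 library at 4 h the lowest. That Th2 library is the one with the highest marker sums of other cells, given above. The Th2 to Th1 ratio was 1.97 at 4 h, 1.09 at 8 h and 0.718 at 24 h. The log2 difference fell by 1.16 over the 20 h (standard error 0.21, limma adjusted p = 0.0184). Leaving out the 4 h libraries gave -0.72 (adjusted p = 0.061), and the call was also lost without the 12, 16, 20 or 24 h libraries, at adjusted p = 0.0534 to 0.156, although the change itself was then -1.16 to -1.23. With Sema7a, Sema4d was 1 of 2 members called in this comparison, both lower, where 0.95% of 10737 tested genes were called and 0.689% were called lower. The other members had trends of 0.71 ± 0.33 (Sema4b), -0.66 ± 0.45 (Plxnb2), 0.07 ± 0.31 (Nrp1) and 0.04 ± 0.25 (Sema4a) on the log2 scale (SE), at limma adjusted p = 0.271 to 0.948.

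**Figure D2:**
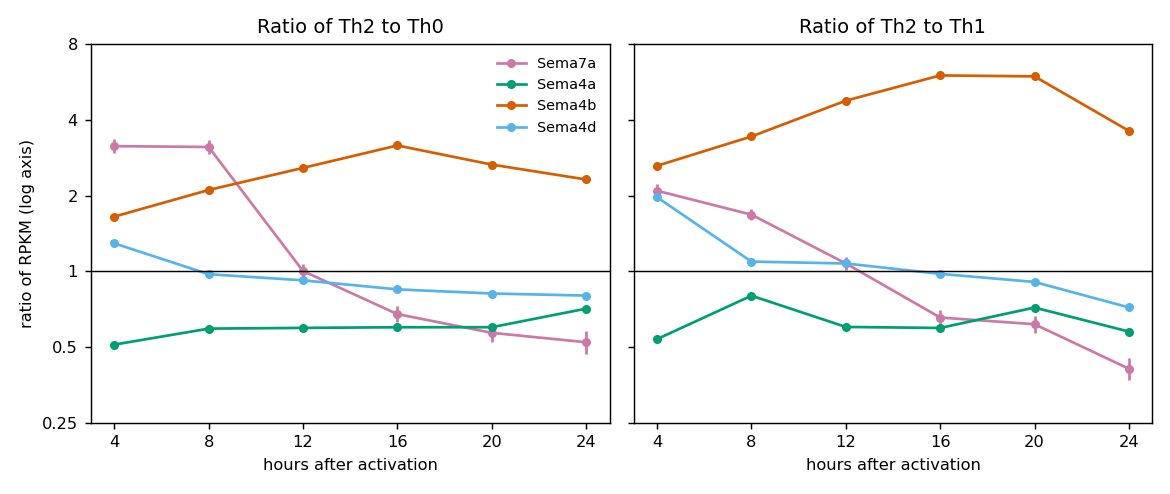
Ratio of the RPKM of Th2 to Th0 cells (left) and Th2 to Th1 cells (right) on a log axis against hours after activation, for the 4 semaphorins, with 95% counting intervals for Sema7a. The Sema7a line crosses 1 at 12 h, from 3.14 to 0.522 on the left, whereas Sema4b stays above 1 and Sema4a below 1 at all 6 time points.

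Sema4b was the member set apart by the Th2 condition. This class 4 membrane semaphorin was at 19.7 RPKM in Th2 cells at 4 h, and at 20.7, 29.3, 39.8, 39.1 and 28.3 RPKM from 8 to 24 h. In Th0 cells it was at 11.9, 9.83, 11.4, 12.6, 14.7 and 12.2 RPKM, and in Th1 cells at 7.49, 6.02, 6.14, 6.64, 6.57 and 7.84 RPKM. The 3 conditions did not overlap, with every Th2 value above every Th0 value and every Th0 value above every Th1 value. How many of all tested genes were separated in this way was not counted. The Th2 to Th0 ratio lay between 1.65 at 4 h and 3.16 at 16 h, and the Th2 to Th1 ratio between 2.63 at 4 h and 6.00 at 16 h. The log2 difference was 1.21 ± 0.13 (SE) for Th2 against Th0 (limma adjusted p = 5.72e-06) and 2.00 ± 0.13 for Th2 against Th1 (adjusted p = 2.24e-08). Th1 cells were lower than Th0 cells by a log2 difference of -0.79 ± 0.13 (adjusted p = 0.00237), which is under the 2-fold threshold used for a call. Sema4b was the 1 member of 6 called in each Th2 comparison, against 2.01% of 10737 genes called for Th2 against Th0 (0.186% higher) and 1.96% for Th2 against Th1 (0.568% higher). No member was called between Th1 and Th0, where the share was 0.494%. Relative to the 18.04 and 20.60 RPKM of resting cells, Sema4b was lower in all 12 Th0 and Th1 cultures and higher in 5 of the 6 Th2 cultures, the other, at 4 h, lying between the resting libraries.

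Sema4a was lower in Th2 cells than in the other 2 conditions at each of the 6 time points. In Th2 cells it fell from 8.63 RPKM at 4 h through 7.46, 4.56, 4.75 and 4.63 to 3.44 RPKM at 24 h. In Th0 cells the values were 16.9, 12.6, 7.66, 7.93, 7.72 and 4.84 RPKM, and in Th1 cells 16.0, 9.32, 7.60, 7.98, 6.45 and 5.97 RPKM. All 3 conditions declined with time, and their ranges overlapped. The log2 difference was -0.69 ± 0.09 (SE) for Th2 against Th0 (limma adjusted p = 5.09e-05) and -0.61 ± 0.09 for Th2 against Th1 (adjusted p = 0.000186), both past the p threshold and under 2-fold. With Sema4b it was 1 of 2 members past the p threshold at any size in each of these comparisons, where 29.6% and 12.2% of genes were. Between Th1 and Th0 the difference was -0.08 (95% interval -0.266 to 0.114, adjusted p = 0.699).

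Neither receptor among the 6 members passed the test between conditions. Plxnb2, which binds class 4 semaphorins, lay between 1.12 and 2.26 RPKM in Th2 cells, 0.768 and 1.53 RPKM in Th0 cells and 0.869 and 1.58 RPKM in Th1 cells, with overlapping ranges. Its log2 difference was 0.35 for Th2 against Th0 (95% interval 0.015 to 0.686, limma adjusted p = 0.105) and 0.28 for Th2 against Th1 (-0.057 to 0.614, adjusted p = 0.291). Nrp1, a co-receptor of secreted semaphorins that also marks thymus-derived regulatory T cells in mice, ranged from 2.75 to 6.31 RPKM in Th2, from 2.67 to 5.85 in Th0 and from 2.91 to 5.45 in Th1 cells. Its intervals were -0.209 to 0.222 for Th2 against Th0 and -0.240 to 0.191 for Th2 against Th1. For Sema4d the averaged differences were -0.11 (interval -0.367 to 0.155) for Th2 against Th0 and 0.09 (-0.170 to 0.353) for Th2 against Th1.

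**Figure D3:**
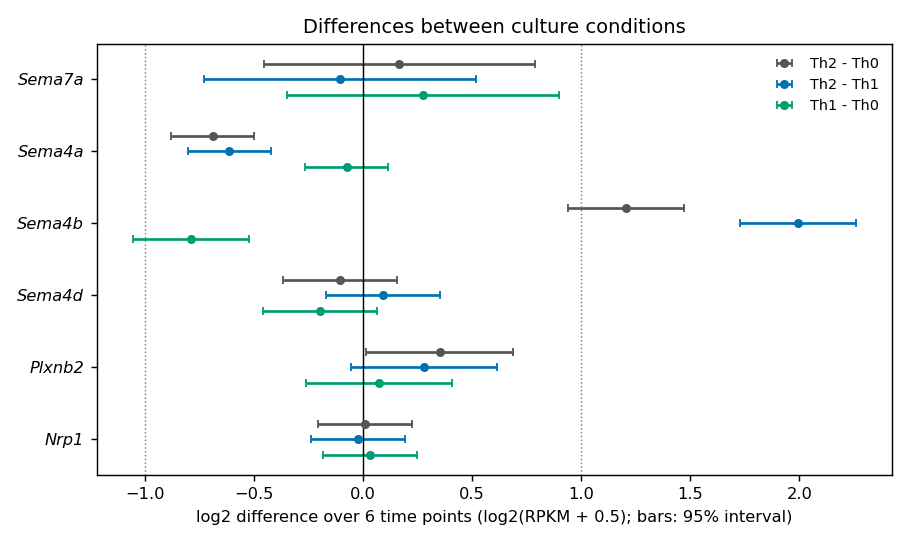
Log2 differences between culture conditions (horizontal axis, log2(RPKM + 0.5)) for the 6 genes, as points with 95% intervals from the limma model over 18 cultures. Dotted lines mark a 2-fold difference. Sema4b lies beyond the dotted line for both Th2 comparisons, at 1.21 and 2.00, Sema4a lies at -0.69 and -0.61, and the widest intervals are those of Sema7a.

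The comparison of 24 with 8 h shares no library with that of 4 h against rest, but the genes were named with earlier results of the whole time course known. In it 3 members fell with an adjusted p under 0.05. The share of all genes past this p at any size was not counted, so the count is not read as particular to the members. Sema7a fell by 1.62 on the log2 scale (standard error 0.41, limma adjusted p = 0.00424), from 72.9 ± 39.0 RPKM to 22.4 ± 9.15 RPKM (SD, n = 3). It was lower at 24 than at 8 h in each condition, from 114.1 to 12.6 RPKM in Th2 cells, from 68.0 to 30.6 in Th1 cells and from 36.6 to 24.0 in Th0 cells. Without the Th2 cultures the log2 difference was -0.87 (adjusted p = 0.00672), under 2-fold. Sema4a fell by 0.97 (adjusted p = 1.61e-05) and Nrp1 by 0.88 (adjusted p = 0.000124), both under 2-fold. Nrp1 went from 5.85 to 3.01 RPKM in Th0, from 5.44 to 2.91 in Th1 and from 5.94 to 2.75 in Th2 cells. Its 3 conditions did not overlap between the times, and the share of all genes without such overlap was not counted. Sema7a was the 1 member of 6 called, where 11.2% of 10737 genes were called and 6.44% were called lower. Sema4b (0.37, adjusted p = 0.0938), Sema4d (0.06, adjusted p = 0.793) and Plxnb2 (-0.02, adjusted p = 0.949) did not pass the test.

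Against rest, 3 members were low in every culture. The share of all genes lying above or below both resting libraries was not counted, here or for Sema7a and Sema4b above. Such counts are therefore not read as particular to the members. Plxnb2 was 7.19 times as high in resting cells as in the mean of the 4 h cultures, and its log2 difference was -2.44 at 4 h and -2.39 at 24 h. Sema4a was 4.29 times as high at rest as at 4 h and 12.5 times as high as at 24 h (log2 differences -2.12 and -3.54). Nrp1 was 1.81 times as high at rest as at 4 h and 3.04 times as high as at 24 h. Sema4d was below both resting libraries in 17 of 18 cultures, with log2 differences of -0.44 at 4 h and -0.57 at 24 h, and for Sema4b they were -0.65 and -0.45 with a standard error of 0.80. These last 2 genes depended on single conditions. Without the Th1 cultures Sema4b was at -0.32 at 4 h and -0.05 at 24 h and Sema4d at -0.18 at 4 h, and without the Th2 cultures Sema4b was at -0.99 and -0.94 and Sema4d at -0.66 at 4 h. As background, 10.6% of 10897 genes were called at 4 h and 30.1% at 24 h, and both comparisons share the 2 resting libraries. Of the calls at 4 h, 24.7% were higher, or 43.5% after quantile normalization, and at 24 h 42.3%, or 54.0%. The median of all genes at 24 h moved from -0.04 to 0.10 with median-of-ratios scaling and to 0.13 with quantile normalization, and all 6 members kept their direction from rest under both.

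The marker sums of macrophages, dendritic cells and B cells were also lower in the cultures than at rest, though not with the same timing. Plxnb2 averaged 1.19 RPKM at 4 h and 1.26 RPKM at 24 h, whereas these sums fell further between those times. All 12 macrophage markers reached 1 RPKM at rest, 9 did so at 4 h and 3 at 24 h. Csf1r, the receptor that macrophages need to survive, went from a mean of 63.8 RPKM at rest to 5.49 at 4 h and 1.86 RPKM at 24 h. The 8 dendritic cell markers summed to 13.4 to 15.2 RPKM at rest, 8.07 to 11.2 at 4 h and 4.54 to 7.40 at 24 h, and the 8 B-cell markers to 72.6 to 82.6, 38.7 to 59.5 and 10.1 to 19.2 RPKM. Of the dendritic cell markers, Zbtb46 (means of 1.79 and 2.03 RPKM) and Batf3 (0.999 and 1.90 RPKM) were higher at 24 h than at rest, and the rest of that list was lower. No macrophage, dendritic or B-cell marker was at 0 in all libraries of these groups. The part of these cells in the resting levels of Plxnb2, Sema4a and Nrp1 was not tested, and in bulk libraries fewer cells of a type cannot be told apart from less RNA per cell. The 8 regulatory T-cell markers did not move one way. Their sum was 252 to 264 RPKM at rest and 370 to 439 RPKM at 24 h, with most of the increase in Tnfrsf18 (a mean of 43.9 RPKM at rest and 194.2 at 24 h) and Ctla4 (59.7 and 90.6 RPKM), which activated T cells also express. Foxp3, their defining transcription factor (22.7 and 18.3 RPKM), Ikzf2 (13.3 and 5.57 RPKM) and Izumo1r (101.2 and 65.7 RPKM) were lower at 24 h than at rest, as Nrp1 was. The remaining markers of the list went the other way. Gpr83 (5.25 and 12.8 RPKM), Ikzf4 (4.93 and 10.97 RPKM) and, by less, Lrrc32 were higher at 24 h than at rest. The part of regulatory T cells in the Nrp1 level was not tested. The macrophage list was at 12.0 to 58.8 RPKM in Th0, 13.1 to 47.1 in Th1 and 8.17 to 79.6 RPKM in Th2 cells. These ranges include its fall with time. The part of other cells in the differences between conditions was not tested.

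After actinomycin, Sema7a was at 14.6 RPKM at 0 h, 13.5 at 1 h, 6.61 at 2 h and 7.36 RPKM at 4 h. It was already lower at 0 h than in any of the 3 cultures at 16 h, which were at 29.1 to 44.5 RPKM. The same held in this library for Sema4a, Sema4d and Plxnb2. The share of all genes below the 16 h cultures in it was not counted, so this is not read as particular to the members. The slope on log2(RPKM + 0.1) was -0.28 per hour, below that of all but 5.04% of 10571 genes, whose median was 0.0024 per hour (two-sided exact permutation p = 0.25). The permutation test has only 24 orders of the 4 time points, so its p-values are coarse. No member's slope had p under 0.05. Nrp1 was at 4.37, 4.35, 2.999 and 3.10 RPKM, Sema4a at 3.70, 4.60, 3.57 and 2.48 RPKM, Sema4b at 18.5, 21.2, 14.1 and 14.6 RPKM and Sema4d at 38.3, 39.4, 28.4 and 35.2 RPKM. With Sema7a, these 5 genes were all lower at 2 h than at 1 h. Each time is a single library, and the share of all genes lower at 2 h was not counted. Plxnb2 was at 0.978, 0.980, 1.59 and 1.51 RPKM, the 1 member with a slope above 0 (0.17 per hour). Slopes of the other members were -0.17 (Sema4a), -0.14 (Nrp1), -0.12 (Sema4b) and -0.05 per hour (Sema4d), with exact permutation p between 0.208 and 0.667 over the 5 members other than Sema7a. RPKM are relative to all mapped reads, so a slope here is relative to the remaining RNA and not a half-life.

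**Figure D4:**
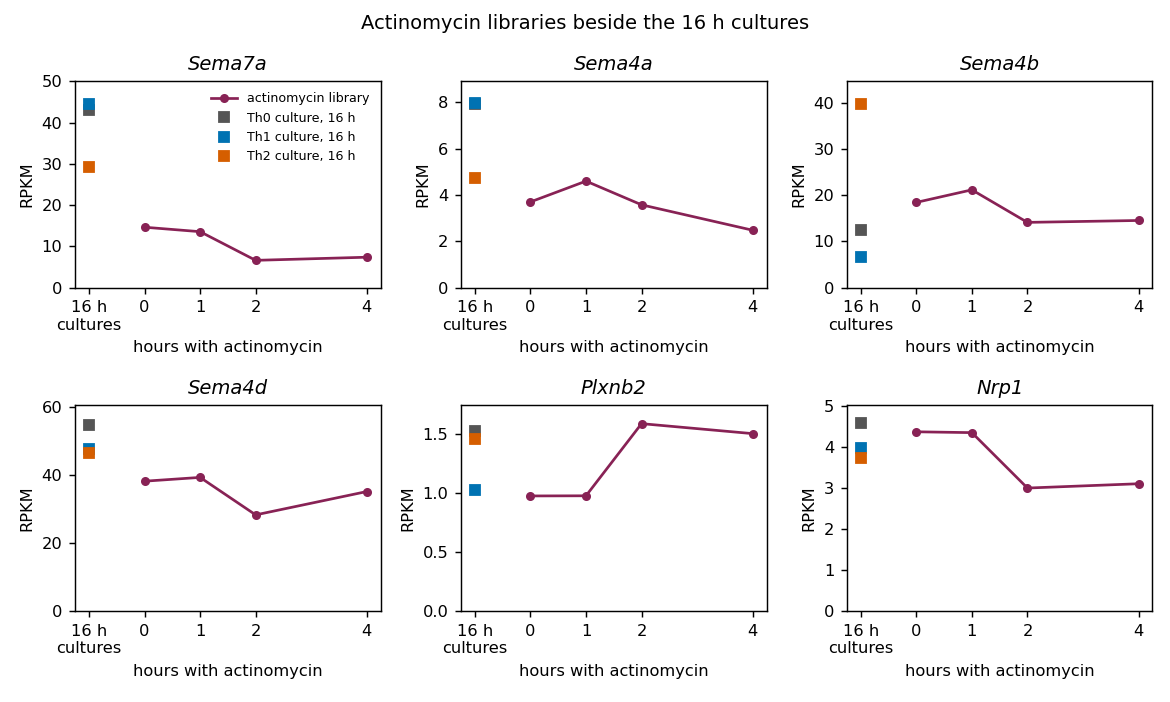
RPKM (vertical axis, starting at 0) of the 6 genes in the 4 actinomycin libraries against hours with actinomycin, 1 library per point, beside the 3 cultures at 16 h as squares. Sema7a starts at 14.6 RPKM, under the 29.1 to 44.5 RPKM of the cultures, and is at 7.36 RPKM at 4 h.

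A list of 63 semaphorins, plexins, neuropilins, other receptors and signalling or shedding proteins puts the 6 members among their relatives. Of these genes 34 had a mean of at least 1 RPKM over the 20 time-course libraries and 22 were below 1 RPKM in every one. All 7 secreted class 3 semaphorins, the usual ligands of neuropilins, were among those 22. Of the 57 genes that are not members, 27 were tested in the cultures. None was called by limma between conditions or in the time trend. For Th2 against Th0, Th2 against Th1, Th1 against Th0 and the trend, 12, 11, 2 and 4 had an unadjusted p under 0.05. The share of all genes at that unadjusted p was not counted, so these counts are not read as particular to the list. At an adjusted p under 0.05 and any size of difference, 9, 6, 1 and 0 of the 27 passed, beside 29.6%, 12.2%, 2.27% and 1.09% of all 10737 genes. Among them were Havcr2, an inhibitory receptor of T cells (0.87 for Th2 against Th0, limma adjusted p = 0.00045), and Fes, a tyrosine kinase (0.75 for Th1 against Th0, adjusted p = 0.000984). The median log2 difference of these 27 was 0.014 for Th2 against Th0 and -0.027 for Th2 against Th1, beside 0.002 and 0.015 for all genes. From 8 to 24 h 2 of them rose, Sema4c by a log2 difference of 1.55 ± 0.24 (SE, limma adjusted p = 8.57e-05) and Rras2, a small GTPase related to the one that plexins inactivate, by 1.28 ± 0.19 (adjusted p = 4.77e-05).

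Against rest, 28 non-members were tested. At 4 h 1 rose, Rras2 (1.16), and 6 fell, which were Sema4f (-2.65), Cd72 (-1.38), Crmp1 (-1.25), Mical3 (-1.21), Arhgef12 (-1.11) and Plxna3 (-1.09), at limma adjusted p of 0.00396 or less. At 24 h 3 rose and 11 fell. Sema4c (2.18) and Rras2 (1.78) rose most. Sema4f (-2.24), Cd72 (-1.93), the Sema4d receptor of B cells, Arhgef11 (-1.59), Arhgef12 (-1.58), the plexin-linked oxidoreductases Mical1 (-1.51) and Mical3 (-1.49), Fes (-1.25) and Crmp1 (-1.12) had the largest falls. The limma adjusted p of these 10 genes was 0.00595 at most, and the median of the 28 was -0.26 at 4 h and -0.24 at 24 h, beside -0.05 and -0.04 for all genes. Cd72 is also a B-cell gene, and the B-cell markers fell as given above. The part of B cells in its fall was not tested. Among receptors for the members, Plxnc1, the plexin of Sema7a, went from 6.68 RPKM at rest to 3.04 RPKM at 24 h. Itga1, an integrin chain of its other receptor, was at 0.543 RPKM at rest and 0.0420 RPKM at 24 h. Itgb1, the other integrin chain on the list, was at 106.0 RPKM at rest and 82.8 RPKM at 24 h. Timd2, a receptor proposed for Sema4a, averaged 1.21 RPKM in Th2 cells, 0.207 in Th0 and 0.139 RPKM in Th1 cells, and was not tested because its mean over the cultures was under 1 RPKM.

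**Figure D5:**
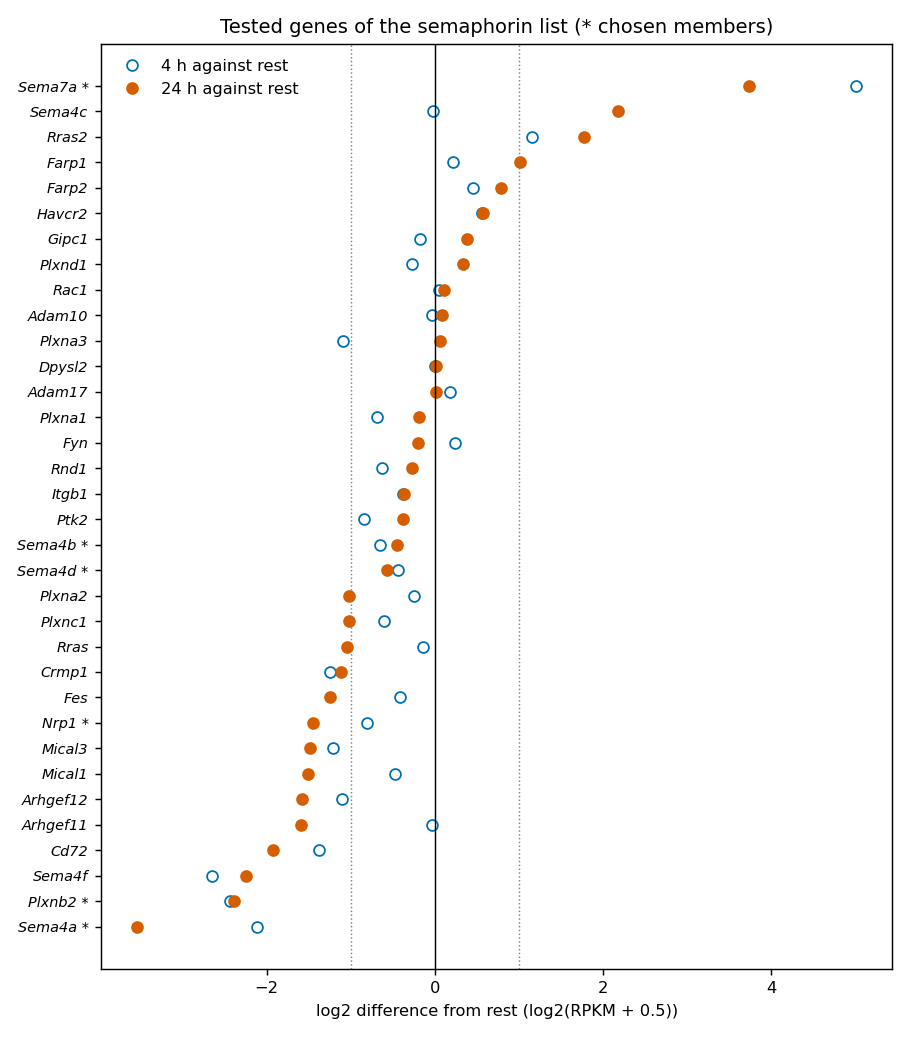
Log2 difference from rest (horizontal axis, log2(RPKM + 0.5)) of the tested genes on the semaphorin list, at 4 h (open circles) and 24 h (filled circles), ordered by the 24 h value. Asterisks mark the 6 chosen members, dotted lines a 2-fold difference. Sema7a has the highest values, 5.01 and 3.73, and Sema4a the lowest at 24 h, -3.54.

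Over the 20 time-course libraries, the genes whose log2 RPKM ran most like a member's were taken by Pearson r among 10897 genes. For Sema7a they were Nr4a3 (r = 0.985), Pmepa1 (0.969) and Hif1a (0.966). For Sema4b they were Gsn (0.873), Glb1 (0.854) and Gata3 (0.823), and for Plxnb2 Pira2 (0.954), Pilra (0.943) and Mertk (0.940), the last on the macrophage list. Sema4a ran most like Sidt1, Abr and Cd37 (0.981 to 0.9749), Nrp1 like Myo9a, Ddx17 and Maf (0.923 to 0.904), and Sema4d like Nrros, Taldo1 and Ap1b1 (0.847 to 0.810). These r share the resting libraries and the time course as points. Over the 18 cultures alone, 1 of the 3 genes stayed among the first 3 for Sema7a (Nr4a3), Sema4b (Glb1) and Nrp1 (Myo9a), and 0 for the other members.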

How the data were processed

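The authors deposited 1 table of RPKM per gene for all 24 libraries, and the submitters' processing notes name BWA and GRCm38. The counting program is not given in the sources used here. Mapped reads per library, and reads for genes whose RPKM are whole multiples of 1 step (among the members Sema7a and Nrp1), were recovered from the deposited RPKM steps with a tolerance of 0.02 reads. Each of the 24 libraries had more genes at 2 reads than at 1, so both ends of a fragment were taken to be counted and intervals rest on read pairs. The other 4 members have no whole steps and no counting interval.

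A gene was tested where its mean reached 1 RPKM. The fit was made on log2(RPKM + 0.5) by limma (version 3.58.1, R 4.3.3), the prior variance following the mean level. Conditions and times were compared over 18 cultures with time point and condition as factors, the trend with condition by hours, and rest over 20 libraries with time point as factor. P-values were adjusted by Benjamini-Hochberg over all tested genes. A gene was called at an adjusted p under 0.05 and at least 2-fold. The fold is on the log2(RPKM + 0.5) scale and understates changes of low genes. Slopes after actinomycin were tested by exact permutation. Genes named beyond the members and cell markers are those of the semaphorin list that were called, up to 10 per comparison, the receptors of members with their levels, and the 3 most alike genes. The receptors were added after their values were seen. Havcr2 and Fes were named in addition. They had the largest differences of non-members for Th2 against Th0 and Th1 against Th0, where neither was called. The fits were tested on simulated data. The members and lists were chosen with earlier results of these data known. Alternatives were other pseudocounts, filters, scalings, no trend, fewer conditions or times, and leaving out libraries. The labels describe purified CD4 cells and the study's methods naive ones. Entries without a gene name (1) were left out.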

Additional observations from a re-analysis of the deposited data

Results flagged for a closer look

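The Th2 to Th1 difference changed over time for 2 members by the test of that change. For Sema7a it changed by -2.36 on the log2 scale from 4 to 24 h, and for Sema4d by -1.16. Without the 4 h libraries the Sema4d value was -0.72. Groups of 4 to 10 replicates of 1 kind were not at hand, so single libraries were not tested for standing apart.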

How the results depend on the processing

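No paired analysis was possible because the cultures carry no replicate numbers, and the fits between conditions already match libraries of the same time point. The 6 members' tested differences kept direction and side of the threshold in 372 of 404 alternatives, and all 36 alternatives of the actinomycin slopes kept their sign. Sema4b stayed called for Th2 against Th0 (1.12 to 1.38) and Th2 against Th1 (1.89 to 2.23) throughout. With 12 to 24 h only, Sema7a turned to -0.57 for Th2 against Th0, Sema4d to -0.14 and Nrp1 to 0.028 for Th2 against Th1, and Sema4a to 0.0078 and Plxnb2 to -0.011 for Th1 against Th0. Quantile normalization turned Nrp1 to 0.011 for Th2 against Th1 and Plxnb2 to 0.12 for 24 h against 8 h, and median-of-ratios scaling turned the latter to 0.004. A pseudocount of 0.1 took Sema4a past 2-fold for 24 h against 8 h (-1.03). Leaving out 1 time point gave for Th2 against Th0 Sema7a -0.13 to 0.38 and Nrp1 -0.071 to 0.060. For Th2 against Th1 it gave Sema7a -0.34 to 0.12, Sema4d -0.084 to 0.20 and Nrp1 -0.096 to 0.045, and for Th1 against Th0 Plxnb2 -0.044 to 0.17 and Nrp1 -0.028 to 0.074. For the trend it gave Sema7a -2.44 to -2.28, Sema4d -1.35 to -0.72, Sema4a -0.29 to 0.24 and Nrp1 -0.39 to 0.20. Leaving out 1 condition gave for 24 h against 8 h Sema7a -2.14 to -0.87, Sema4a -1.16 to -0.81, Sema4d -0.092 to 0.21 and Plxnb2 -0.25 to 0.25. Genes called for the trend numbered 102, 55 with no filter and 22 to 278 without 1 time point, and 27.5% of them were higher, or 39.6% after quantile normalization. With a mean of at least 5 RPKM, fewer genes were tested and 764 rather than 1206 were called for 24 h against 8 h and 646 rather than 1152 for 4 h against rest; Plxnb2 and Nrp1 drop out there. Other causes were not tested. With 1 library per culture, and counting error known for Sema7a and Nrp1 alone, the spread between cultures of 1 kind is not measured.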
